A study of Mus musculus with 24 samples.

Results

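The natriuretic peptide system was followed through 7 genes of the mouse heart: the peptide genes Nppa, Nppb and Nppc, the receptor genes Npr1, Npr2 and Npr3, and Corin, a protease gene. They were chosen by gene symbol, and all 7 were found by their Ensembl identifiers among the 46078 genes of the deposited count tables. RNA had been sequenced from hearts of C57BL/6 mice, an inbred strain, after sham surgery, after 45 min of ischemia, or after 45 min of ischemia and 0.5, 1, 1.5, 3, 6 or 12 h of reperfusion. There were 3 libraries for each of these 8 groups (24 together), and no genotype or agent besides the surgery is named in the labels. The labels call the tissue heart and name neither a chamber nor separate animals, so p-values measure the spread between these libraries, which may in part be technical.

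Natriuretic peptides are hormones of the heart that lower blood pressure by acting on vessels, kidney and adrenal gland. Nppa encodes atrial natriuretic peptide (ANP) and Nppb encodes B-type natriuretic peptide (BNP). Both are switched on together in ventricular muscle of the fetus, are held low in the adult ventricle, and return under wall stress, which makes them common laboratory signs of a strained heart. Nppc encodes C-type natriuretic peptide, a local signal of vessel walls and cartilage. Npr1 and Npr2 are membrane guanylyl cyclases that make cyclic GMP when ANP or BNP (Npr1) or C-type peptide (Npr2) binds. Npr3 is a receptor without a cyclase that removes the peptides from the circulation, and Corin is a membrane protease of heart muscle cells that cuts the ANP precursor.

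Libraries held between 13407465 and 17181458 uniquely mapped reads in genes. Levels are given in CPM, counts scaled to the library size with TMM factors, and changes as log2 fold changes ± SE from edgeR's quasi-likelihood test. A gene was called changed at a Benjamini-Hochberg adjusted p under 0.05 over 15128 tested genes, and n was 3 in every group. Of the 7 genes 6 were tested, and Nppc was too low for a test. All 9 ventricular muscle markers were detected in every library, at a sum of 42056 to 49867 CPM at 12 h, against 59131 to 62424 CPM in sham hearts, and of 52120 to 78925 CPM in the other groups. Of the atrial markers Bmp10 had 0 reads in every library, Sln averaged at most 0.101 CPM in any group and Myl7 at most 0.355 CPM. Neutrophil markers, 6 genes that all had reads, summed to 55.6 to 137 CPM at 6 h and 53.7 to 60.7 CPM at 12 h, against 3.56 to 6.48 CPM in sham hearts, and their part in the results was not tested. In bulk tissue, fewer cells of a type and less RNA per cell cannot be told apart. The library labelled ischemia replicate 3 stood apart from its group: its chi-square over genes was 63.4 and 72.6 for each degree of freedom against the other ischemia libraries, and 8.77 to 17.8 against the 0.5 h libraries. Its share of mitochondrial reads was 19.0%, beside 29.7% and 30.2% in the other ischemia libraries. The library labelled 1 h replicate 1 also differed from the other 1 h libraries (45.3 and 61.7, beside 9.57 between those).

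Nppa and Nppb lie side by side on chromosome 4 in the same direction, which is why their upstream sequences are shown together. On GRCm38 with the GENCODE vM21 annotation, Nppb (ENSMUSG00000029019) spans chr4:147985788-147987205 on the plus strand and Nppa (ENSMUSG00000041616) spans chr4:148000722-148002079 on the plus strand, 13516 bases further along. The 250 bases before each RefSeq start on GRCm38.p6 are printed 5′ to 3′, at chr4:148000472-148000721 for Nppa and chr4:147985650-147985899 for Nppb, both on the plus strand. The RefSeq start of Nppb lies inside the GENCODE gene, so the end of its window is transcribed in the GENCODE model. Capitals mark matches, on either strand, to the motifs searched. All matches of Nppb lie in the transcribed end of its window, while the window of Nppa lies wholly before its GENCODE gene.
Nppa: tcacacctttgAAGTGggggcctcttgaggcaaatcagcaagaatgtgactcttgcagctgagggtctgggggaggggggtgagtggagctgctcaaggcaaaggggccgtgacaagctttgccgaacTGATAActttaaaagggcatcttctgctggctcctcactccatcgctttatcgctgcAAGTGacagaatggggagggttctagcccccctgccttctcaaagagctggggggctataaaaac
Nppb: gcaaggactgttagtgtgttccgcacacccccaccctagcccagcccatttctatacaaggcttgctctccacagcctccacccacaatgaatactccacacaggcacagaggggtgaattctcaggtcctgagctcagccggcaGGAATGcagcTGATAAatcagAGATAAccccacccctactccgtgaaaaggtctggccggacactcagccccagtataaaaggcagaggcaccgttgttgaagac

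The search covered 6 motifs of known cardiac or stress factors on both strands. The GATA box was AGATAA, or with its first letter changed, TGATAA. The core bound by NKX2-5 was AAGTG. M-CAT, the site of TEAD factors, was CATTCC. The AP-1 site was TGANTCA, and the core of the cyclic AMP response element was TGACGT. The CArG box of serum response factor was searched as well, and matches of different motifs did not overlap each other. Nppa held 1 GATA box, 122 to 117 bases before its start, and 2 NKX2-5 cores, at 239 to 235 and 65 to 61 bases before it. Nppb held 2 GATA boxes, 95 to 90 and 84 to 79 bases before its start, and 1 M-CAT match on the opposite strand at 105 to 100 bases. Neither window held the letters of an AP-1 site, a cyclic AMP response element core or a CArG box. Among 32851 promoter windows of the same length, 16.6% held a GATA box, 40.7% an NKX2-5 core, 12.6% an M-CAT match, 6.75% an AP-1 site, 6.47% a cyclic AMP response element core and 1.47% a CArG box. The same 6 motifs gave 0 matches in the windows of the other 5 genes. A match describes letters only and was not tied to any factor here.

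Nppb reached the highest fold over sham of the 6 tested genes, at 6 h of reperfusion. The libraries held 84.9, 84.1 and 43.6 CPM in sham hearts and 148, 130 and 149 CPM after ischemia. They held 191, 118 and 213 CPM at 0.5 h, 274, 187 and 136 CPM at 1 h, and 129, 284 and 299 CPM at 1.5 h. They held 192, 599 and 495 CPM at 3 h, 709, 1288 and 1252 CPM at 6 h, and 200.4, 341 and 401 CPM at 12 h. No library of any later group overlapped with sham, and the 6 h libraries lay above every library of every other group. In order of mean level the groups ran 6 h, 3 h, 12 h, 1.5 h, 1 h, 0.5 h, ischemia and sham. Neighbours in that order overlapped except 6 h with 3 h and ischemia with sham.

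Against sham, Nppb was called at every time of reperfusion. At 6 h it averaged 1083 ± 324 CPM, against 70.9 ± 23.7 CPM in sham hearts (log2 fold change 3.93 ± 0.41, adjusted p = 5.66e-08). At 12 h it averaged 314 ± 103 CPM (log2 fold change 2.15 ± 0.38 against sham, adjusted p = 0.000150). The earlier log2 fold changes against sham were 1.30 at 0.5 h (adjusted p = 0.0279), 1.49 at 1 h (adjusted p = 0.0129), 1.74 at 1.5 h (adjusted p = 0.00479) and 2.59 at 3 h (adjusted p = 2.20e-05). After ischemia alone Nppb averaged 142 ± 11 CPM (log2 fold change 1.01 ± 0.37, adjusted p = 0.428), and the test did not call it. Without ischemia replicate 3 the log2 fold change was 0.97 (adjusted p = 0.949). The 0.5 h call was lost without any 1 sham library (adjusted p = 0.0525 to 0.130) and also when 0.5 h replicate 1 (0.0917) or 3 (0.101) was left out. Leaving out sham replicate 3 (adjusted p = 0.0752) or 1 h replicate 1 (adjusted p = 0.101) ended the 1 h call. With an atrial marker covariate, described with Nppa, both calls were lost as well, at log2 fold changes of 1.25 at 0.5 h (adjusted p = 0.126) and 1.42 at 1 h (adjusted p = 0.102).

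Between neighbouring times Nppb was called only in its last steps. The 6 h hearts stood above the 3 h hearts (log2 fold change 1.34 ± 0.37, adjusted p = 0.00881), and the 12 h hearts stood below the 6 h hearts (log2 fold change -1.78 ± 0.37, adjusted p = 0.00265). At 3 h the libraries themselves were spread, with replicate 1 at 192 CPM beside 599 and 495 CPM. The log2 fold change of 3 h over 1.5 h was 0.85 ± 0.37 (adjusted p = 0.160). It was called without 3 h replicate 1 (1.20, adjusted p = 0.0489) and without the filter on low counts (0.85, adjusted p = 4.20e-07). That unfiltered fit called 1621 genes in this comparison, beside 1290 with the filter, and 159 at 1 h against 0.5 h, beside 0. Reads marked as duplicates made up 54.6% of Nppb reads at 6 h, against 36.2% in sham hearts. Over all genes the share was 41.9% to 45.5% in the 6 h libraries and 50.1% to 54.4% in the sham libraries. With duplicates removed, the 6 h log2 fold change of Nppb was 3.40.

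**Figure D1:**
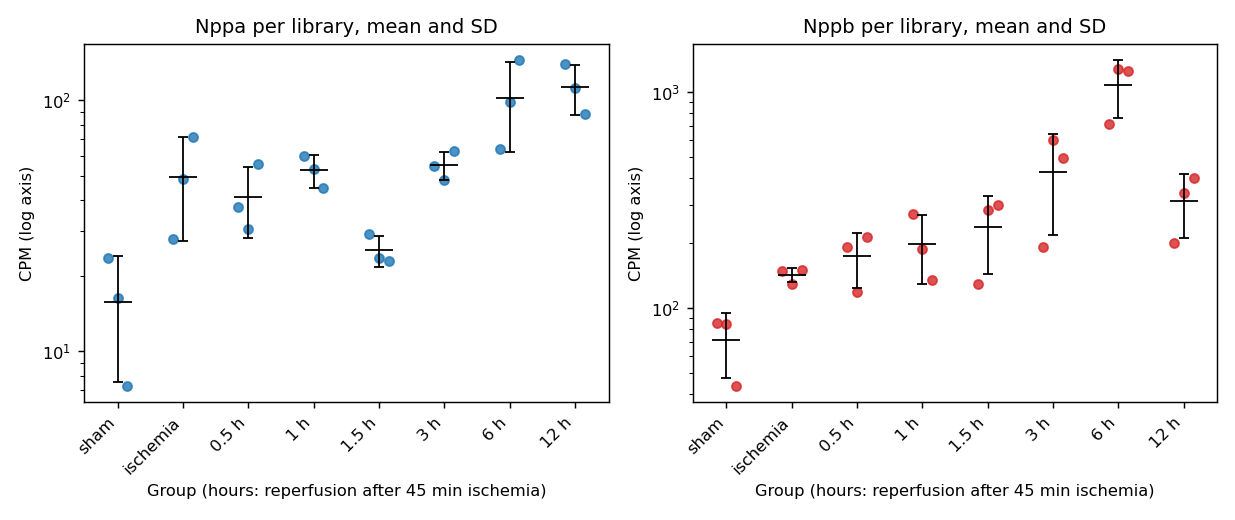
Nppa (left) and Nppb (right) in CPM on a log axis, by group in order of time with 3 points for the 3 libraries, the mean as a bar and the SD as whiskers. Nppb reaches 709 to 1288 CPM at 6 h and lies at 200.4 to 401 CPM at 12 h, while Nppa lies at 64.1 to 144 CPM at 6 h and 88.0 to 139 CPM at 12 h.

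Nppa followed another course: it was close to sham at 1.5 h, highest at 6 and 12 h, and at 12 h it lay within the range of the 6 h libraries. The libraries held 23.6, 16.4 and 7.28 CPM in sham hearts and 28.1, 48.4 and 71.6 CPM after ischemia. They held 37.6, 30.6 and 55.6 CPM at 0.5 h, 59.9, 53.3 and 44.5 CPM at 1 h, and 29.4, 23.5 and 22.9 CPM at 1.5 h. They held 54.9, 48.0 and 62.6 CPM at 3 h, 64.1, 98.6 and 144 CPM at 6 h, and 139, 112 and 88.0 CPM at 12 h. Of the groups after sham, 1.5 h was the one that overlapped with sham, and ischemia replicate 1 lay close above the highest sham library. The sham libraries differed from each other by 3.25-fold, the widest spread within a group for this gene. The order of the means ran 12 h, 6 h, 3 h, 1 h, ischemia, 0.5 h, 1.5 h and sham, and neighbours overlapped except 6 h with 3 h and 0.5 h with 1.5 h.

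Nppa was called against sham at 0.5, 1, 3, 6 and 12 h. At 12 h it averaged 113 ± 25.5 CPM, against 15.8 ± 8.19 CPM in sham hearts (log2 fold change 2.83 ± 0.35, adjusted p = 1.43e-06). At 6 h it averaged 102 ± 40.2 CPM (log2 fold change 2.69 ± 0.35, adjusted p = 1.13e-06). The log2 fold changes were 1.38 at 0.5 h (adjusted p = 0.0119), 1.73 at 1 h (adjusted p = 0.00222) and 1.80 at 3 h (adjusted p = 0.000281). At 1.5 h it was 0.67 ± 0.34 (adjusted p = 0.249), with 25.3 ± 3.57 CPM.

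The ischemia value of Nppa depended on single libraries. It was 49.4 ± 21.8 CPM after ischemia, against 15.8 ± 8.19 CPM in sham hearts (log2 fold change 1.64 ± 0.34, adjusted p = 0.0557). Its highest library, replicate 3 with 71.6 CPM, is the one that stood apart over all genes. Without ischemia replicate 1 the log2 fold change was 1.92 (adjusted p = 0.00783), and without ischemia replicate 3 it was 1.26 (adjusted p = 0.523). Without sham replicate 1 it was called as well (2.05, adjusted p = 0.0487). DESeq2 called it at an adjusted p of 0.00848 and the fit without a filter at 2.42e-24. That unfiltered fit called 289 genes in all, beside 14 with the filter. The ischemia value was not called by limma-voom (adjusted p = 0.192), with duplicates removed (0.124), with the atrial covariate (0.729) or with only the 2 groups' libraries (0.174). Nor was it called without sham replicate 2 (0.225), sham replicate 3 (0.321) or ischemia replicate 2 (0.135). The 0.5 h call was lost without sham replicate 3 (adjusted p = 0.0719) and without 0.5 h replicate 3 (adjusted p = 0.0717). Between neighbouring times, the 3 h hearts stood above the 1.5 h hearts (log2 fold change 1.13 ± 0.33, adjusted p = 0.0337) and the 6 h hearts above the 3 h hearts (0.89 ± 0.32, adjusted p = 0.0396). The first of these calls was lost without 1.5 h replicate 1, 2 or 3 or 3 h replicate 1 or 3 (adjusted p = 0.0664 to 0.126), with library totals (0.0569) and with the atrial covariate (0.214). The second was lost without 3 h replicate 1, 2 or 3 or 6 h replicate 2 or 3 (adjusted p = 0.0589 to 0.25), with DESeq2 (0.0576) and with library totals (0.0504). The log2 fold change of 1.5 h over 1 h was -1.06 ± 0.33 (adjusted p = 0.277), and that of 12 h over 6 h was 0.15 ± 0.31 (adjusted p = 0.804).

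Atrial tissue is a rich source of Nppa, so the atrial marker list was set beside it. Of its 8 genes 5 had at least 3 reads in every library, and Bmp10, Sln and Myl7 were at 0 or near it as given above. The summed level of the list was 24.1 to 28.1 CPM at 6 h and 23.6 to 29.0 CPM at 12 h, against 19.7 to 25.8 CPM in sham hearts. After ischemia it was 26.2 to 32.1 CPM. The members moved unequally. Stard10, the highest of them in every group, averaged 14.7 CPM at 6 h, against 10.2 CPM in sham hearts (log2 fold change 0.52, adjusted p = 0.0187). It was also called higher at 0.5 h (0.58, adjusted p = 0.0366), 1 h (0.70, adjusted p = 0.0136) and 3 h (0.88, adjusted p = 0.000506). At 1 h Stard10 averaged 16.6 CPM, where the whole list averaged 28.1 CPM. Dkk3 averaged 0.947 CPM at 6 h, against 1.83 CPM in sham hearts (log2 fold change -0.96, adjusted p = 0.0104). Gja5 was called lower at 1.5 h (-1.13, adjusted p = 0.0222) and 3 h (-1.49, adjusted p = 0.000673), and Myl4 higher at 3 h (1.05, adjusted p = 0.0338). With this sum as a covariate, the log2 fold change of Nppa was 1.08 at 0.5 h (adjusted p = 0.122) and 1.38 at 1 h (adjusted p = 0.0509), no longer called. Over all genes the covariate left 229 calls at 0.5 h, beside 1802 without it, and 283 at 1 h, beside 1645. Stard10, itself called at both times, is part of the sum, and what the covariate stood for was not tested. The calls of Nppa at 3, 6 and 12 h and those of Nppb at 1.5, 3, 6 and 12 h held under each of the 17 settings tried, the covariate among them.

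An antisense gene, Gm13054, runs on the minus strand at chr4:148001091-148004014. It overlaps 989 bases of Nppa (chr4:148000722-148002079), which is most of that gene. Whether the counting used strand is not given in the sources used here, so reads of the shared stretch cannot be assigned with certainty. Gm13054 held 3, 9, 10, 6, 8, 17, 151 and 69 reads over the 3 libraries of each group, in order of time with sham first. Nppa held 698, 2410, 2034, 2424, 1134, 2523, 5017 and 6301 reads in the same groups. The antisense reads were highest at 6 h and the Nppa reads at 12 h. The antisense gene was chosen for mention after its values were seen.

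The ratio of Nppb to Nppa changed with time. Per kilobase of gene length, where levels of different genes can be compared, Nppb stood 5.44 ± 1.34 times as high as Nppa in sham hearts, 3.71 ± 1.88 after ischemia, 4.72 ± 0.788 at 0.5 h and 4.11 ± 0.862 at 1 h. It stood 10.9 ± 5.26 times as high at 1.5 h, 8.81 ± 4.97 at 3 h, 12.1 ± 2.43 at 6 h and 3.34 ± 1.73 at 12 h. A permutation test of the log2 ratio across the 8 groups gave p = 0.0114 (F = 3.94, 100000 resamples of the library labels), and the other settings gave p of 0.00281 to 0.0301. The 6 h ratios, at 9.62 to 14.5, lay above all ratios of sham, ischemia, 0.5 h, 1 h and 12 h. At 1.5 h and 3 h 1 library of each group lay at 4.86 and 3.87, among the low groups.

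**Figure D2:**
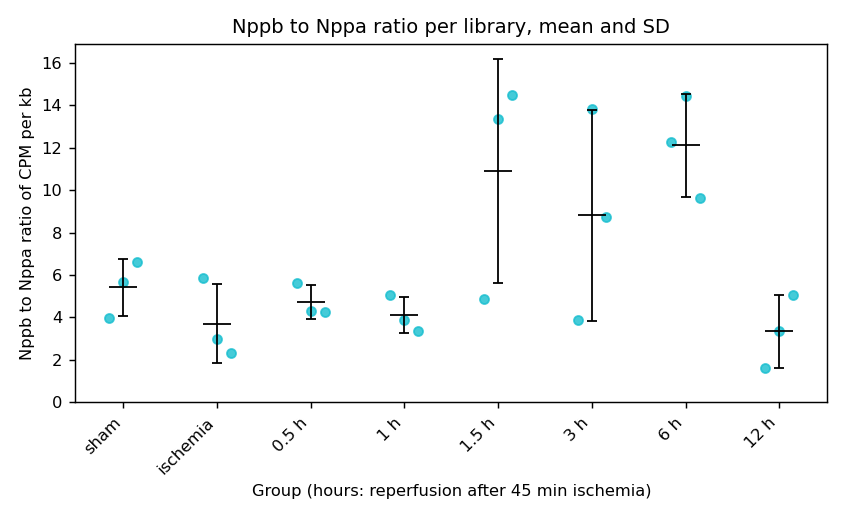
Ratio of Nppb to Nppa in CPM per kilobase of gene length, by group in order of time, with a point per library, the mean as a bar and the SD as whiskers. All 3 libraries at 6 h lie between 9.62 and 14.5, and all 3 at 12 h between 1.60 and 5.05.

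Nppc was barely detected. It had 13 reads over the 24 libraries, in 5 of them, and at most 0.244 CPM in a library. A count of 3 reads corresponds to 0.152 to 0.240 CPM, so differences between groups were not detectable at this depth. By group it had 2 reads in sham hearts, 0 after ischemia, 3 at 0.5 h, 3 at 1 h, 0 at 1.5 h, 1 at 3 h, 4 at 6 h and 0 at 12 h. It spans chr1:86666291-86670571 on the minus strand.

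Npr1, the cyclase receptor of ANP and BNP, changed late and by little. The gene (ENSMUSG00000027931) spans chr3:90450591-90465866 on the minus strand. At 12 h its libraries held 39.8, 35.3 and 28.1 CPM, against 22.4, 22.2 and 26.1 CPM in sham hearts. The 12 h libraries all lay above the sham libraries. The averages were 34.4 ± 5.86 CPM at 12 h and 23.6 ± 2.18 CPM in sham hearts (log2 fold change 0.55 ± 0.18, adjusted p = 0.0195). The call was lost without sham replicate 1 (adjusted p = 0.0665), sham replicate 2 (0.0723), 12 h replicate 1 (0.101) or 12 h replicate 2 (0.0519), and with the atrial covariate (0.0678). At the other times the group means lay between 20.8 and 26.7 CPM, and every group overlapped with sham. Markers of smooth muscle and pericytes, where Npr1 is active, summed to 947 to 1103 CPM over 8 of 8 detected genes at 12 h, against 1605 to 1654 CPM in sham hearts, and those of endothelium to 885 to 1060 CPM over 8 of 8, against 968 to 1077 CPM. Their part in the result was not tested.

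Npr2, the cyclase receptor of C-type peptide, was lower at 6 h than at 3 h. It spans chr4:43631935-43651244 on the plus strand (ENSMUSG00000028469). At 6 h its libraries held 52.6, 46.9 and 53.9 CPM, against 62.4, 64.5 and 71.7 CPM at 3 h. The 2 groups did not overlap (log2 fold change -0.37 ± 0.11, adjusted p = 0.0129). The call was lost without 3 h replicate 3 (adjusted p = 0.0712), without 6 h replicate 2 (0.0785), when libraries were scaled by their totals alone (0.119) and without the filter on low counts (0.0655). Sham libraries held 58.3, 57.9 and 62.5 CPM, so 6 h also lay below sham without overlap. That difference was not called (-0.22 ± 0.11, adjusted p = 0.101), though it was with the atrial covariate (-0.29, adjusted p = 0.0482). At 12 h the libraries held 70.7, 61.9 and 57.0 CPM, above 6 h by 0.31 ± 0.11 on the log2 scale (adjusted p = 0.0650), a difference called with library totals (0.48, adjusted p = 0.0275) and without 12 h replicate 3 (0.37, adjusted p = 0.0416). Between 0.5 and 1.5 h all 9 libraries lay above sham, at 64.7 to 73.2 CPM, with log2 fold changes of 0.20 to 0.23 that were not called (adjusted p = 0.214 to 0.251). In a fit of only the sham and 0.5 h libraries the 0.5 h difference was called (0.21, adjusted p = 0.0387).

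Fibroblast markers moved in the same direction as Npr2 at 6 h. The 7 genes, all detected, summed to 485 to 778 CPM at 6 h, against 912 to 1339 CPM at 3 h and 1289 to 1354 CPM in sham hearts. Between 6 and 12 h both means rose, from 641 to 955 CPM for the fibroblast markers and from 51.2 to 63.2 CPM for Npr2. Against sham the 2 stood differently at 1.5 and 12 h. Fibroblast markers summed to 1012 to 1279 CPM at 1.5 h, below sham, where all Npr2 libraries lay above sham. At 12 h they summed to 658 to 1134 CPM, where Npr2 overlapped with sham. Smooth muscle and pericyte markers were lower at 6 h too, at 902 to 1212 CPM, against 1447 to 1708 CPM at 3 h. The part of these cells in the Npr2 difference was not tested. An antisense gene, Gm12473, overlaps Npr2 on the minus strand and held 148 reads at 6 h and 145 at 3 h, beside 2526 and 3011 reads of Npr2. In sham hearts it held 35 reads beside 2536.

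Npr3 and Corin were not called in any comparison. Npr3, the clearance receptor, spans chr15:11839896-11907287 on the minus strand and ranged between 7.36 and 24.6 CPM over the libraries, with a median of 14.8 CPM. Group means lay between 11.6 CPM at 0.5 h and 17.2 CPM at 1 h, and every group overlapped with sham. Its log2 fold changes against sham lay between -0.17 and 0.40, and their 95% intervals reached -0.87 and 1.08. Corin spans chr5:72300025-72504473 on the minus strand and was the steadiest of the 6 tested genes, with a coefficient of variation of 9.40% over the 24 libraries. Its group means lay between 205.0 CPM at 3 h and 237.6 CPM at 1 h, beside 232.8 CPM in sham hearts. Its log2 fold changes against sham lay between -0.18 and 0.03, and the 95% intervals stayed between -0.44 and 0.28.

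**Figure D3:**
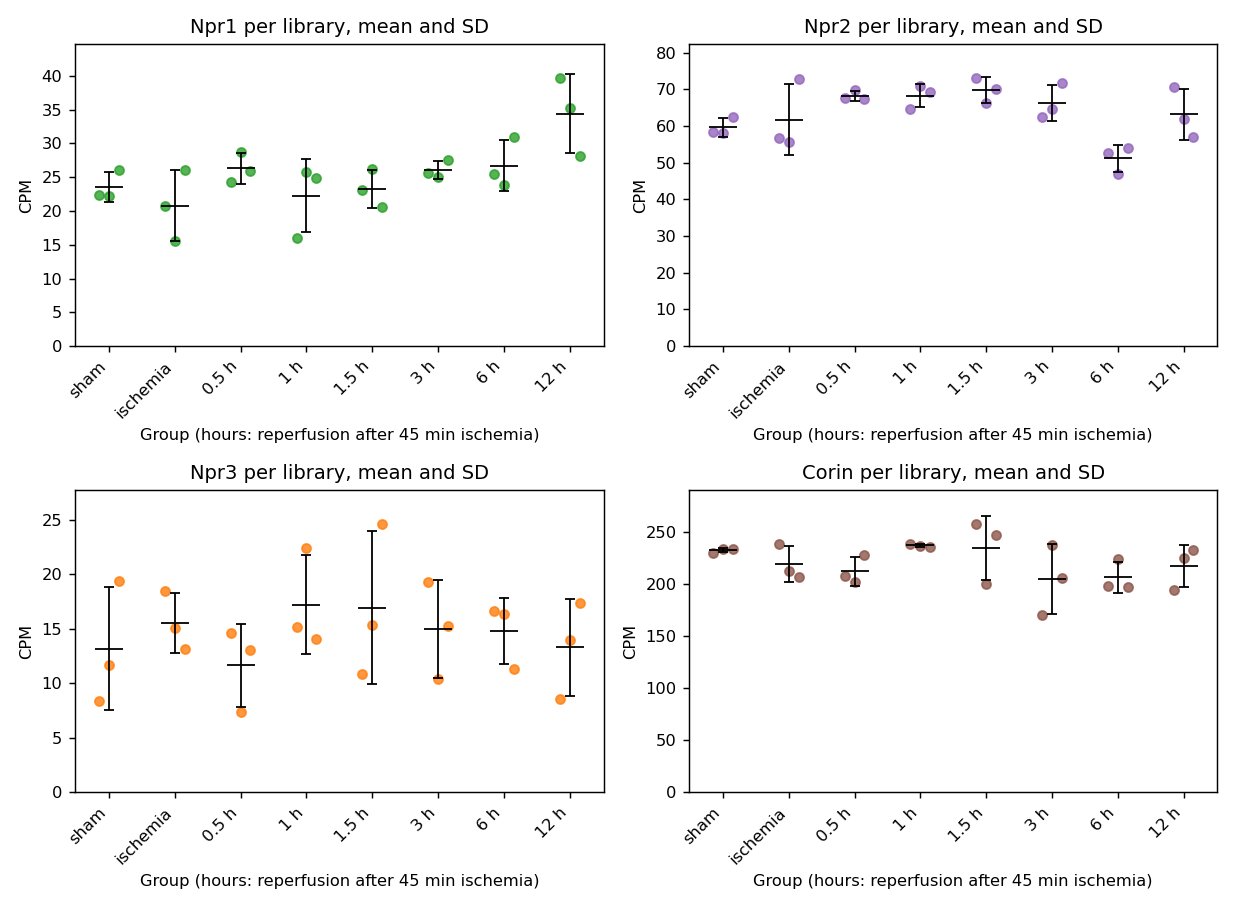
Npr1, Npr2, Npr3 and Corin in CPM from 0, by group in order of time, with a point per library, the mean as a bar and the SD as whiskers. Npr1 is highest at 12 h (28.1 to 39.8 CPM), Npr2 is lowest at 6 h (46.9 to 53.9 CPM), and Npr3 and Corin overlap between most groups.

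The levels of the genes were set beside each other on the same per kilobase scale. At 6 h Nppb had 1387 CPM per kb, Nppa 118, Corin 38.3, Npr2 11, Npr1 5.59 and Npr3 2.13. In sham hearts Nppb had 90.8 CPM per kb, Corin 43.1, Nppa 18.2, Npr2 12.8, Npr1 4.92 and Npr3 1.90. By these group means Nppa stood below Corin in sham hearts and at 1.5 h and above it in the other groups. The ratio of Corin to Nppa per kilobase was 0.360 ± 0.138 at 6 h and 0.323 ± 0.10 at 12 h, against 3.00 ± 1.90 in sham hearts. Among the receptors, the ratio of Npr2 to Npr1 per kilobase was 1.98 ± 0.173 at 6 h and 1.90 ± 0.152 at 12 h, against 2.60 ± 0.123 in sham hearts. The 6 h and 12 h ratios, at 1.79 to 2.12 and 1.80 to 2.07, did not overlap with the sham ratios at 2.46 to 2.68.

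**Figure D4:**
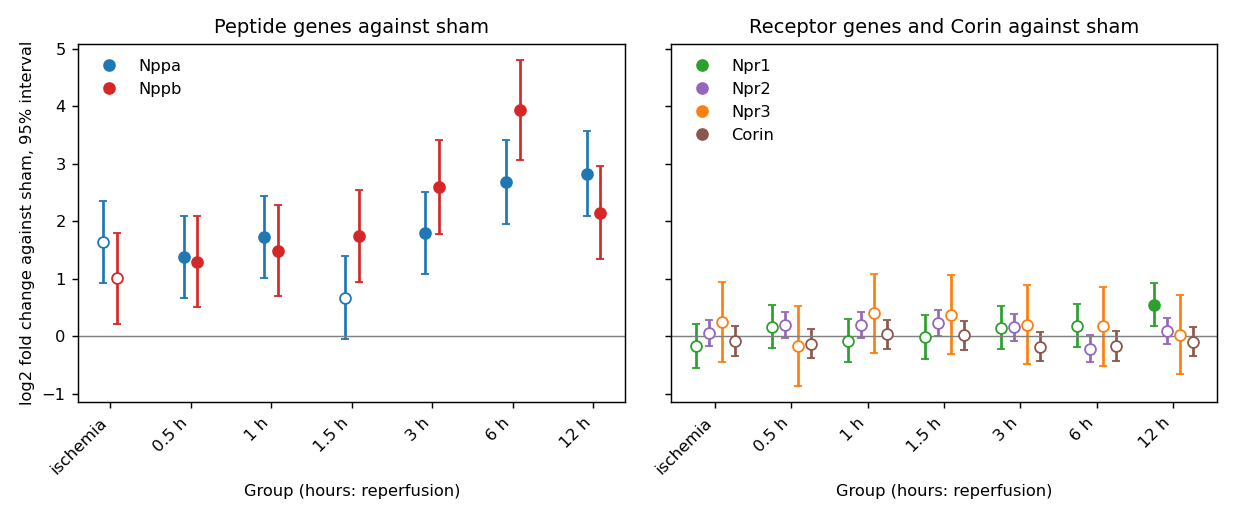
Log2 fold changes against sham with 95% intervals, for the peptide genes (left) and for the receptor genes and Corin (right), by group in order of time. Filled points are called at an adjusted p under 0.05 and open points are not. Nppb reaches 3.93 at 6 h and Nppa 2.83 at 12 h, and of the right panel only Npr1 at 12 h (0.55) is filled.

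Counted over the 6 tested genes, calls were made in the following numbers, beside the share of all 15128 tested genes called in the same comparison. Against sham there were 2 higher at 0.5 h (all genes: 11.9% called, 7.43% higher), 2 higher at 1 h (10.9%, 7.46% higher) and 1 higher at 1.5 h (7.54%, 4.55% higher). There were 2 higher at 3 h (35.3%, 18.4% higher), 2 higher at 6 h (47.4%, 24.6% higher) and 3 higher at 12 h (31.8%, 16.9% higher). After ischemia edgeR called 0 of the 6 (0.0925% of all genes), with 2 at an unadjusted p under 0.05, 1 called by DESeq2 and 0 by limma-voom. At 3 and 6 h the share of the 6 genes called was no higher than that of all genes. The median log2 fold change over all tested genes was -0.01 at both times.

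Between neighbouring times, edgeR called 0 of the 6 at 0.5 h against ischemia (0.0331% of all genes), 0 at 1 h against 0.5 h (0%) and 0 at 1.5 h against 1 h (0.0661%). At an unadjusted p under 0.05 these were 0, 0 and 1, and DESeq2 and limma-voom called 0 in each. Without ischemia replicate 3, 1156 genes in all were called at 0.5 h against ischemia, beside 5 with it, and still 0 of the 6. The 3 h against 1.5 h comparison had 1 higher (8.53% of all genes called, 5.36% higher). The 6 h against 3 h comparison had 2 higher and 1 lower (27.9% called, 14.7% higher and 13.2% lower), and 12 h against 6 h had 1 lower (13.2% called, 6.68% lower). In the test across all 8 groups 4 of the 6 were called, Nppa (adjusted p = 1.81e-06), Nppb (1.24e-07), Npr1 (0.0226) and Npr2 (0.0180), where 64.3% of all genes were. Npr3 (adjusted p = 0.684) and Corin (0.492) were not. The call of Npr1 across groups was lost without 12 h replicate 1 (adjusted p = 0.124) or 2 (0.0763). That of Npr2 was lost with library totals (0.0561), without the filter on low counts (0.124) and without 6 h replicate 2 (0.0976).

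Libraries of a group that all lay above all sham libraries were found for 2 of the 6 genes after ischemia (7.74% of all genes), 3 at 0.5 h (20.8%), 4 at 1 h (16.9%), 2 at 1.5 h (16.9%), 2 at 3 h (23.7%), 2 at 6 h (30.6%) and 3 at 12 h (25.5%). Libraries that all lay below sham were found for 1 gene at 0.5 h (21.1%) and 2 at 6 h (29.4%). These were Nppa and Nppb at most times, with Npr2 above sham at 0.5, 1 and 1.5 h and below it at 6 h. Corin lay below sham at 0.5 h and 6 h and above it at 1 h, by differences that were not called.

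The genes that process and clear the peptides changed in both directions, and mostly from 3 h on. Of 10 listed genes 9 were tested, and Ostn, a decoy ligand of Npr3, was not. At 6 h 4 were higher and 5 lower than in sham hearts (all genes: 24.6% higher and 22.9% lower), with a median log2 fold change of -0.60 (all genes -0.01). At 12 h 2 were higher and 3 lower (all genes: 16.9% and 14.9%), and at 3 h 2 were higher and 2 lower (18.4% and 16.9%). Before 3 h edgeR called 0 of the 9 in each comparison with sham, and the numbers at an unadjusted p under 0.05 were 0 after ischemia, 3 at 0.5 h, 1 at 1 h and 1 at 1.5 h.

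Furin, a convertase that cuts precursors including that of BNP, had 186 ± 30.7 CPM at 6 h, against 92.0 ± 6.29 CPM in sham hearts (log2 fold change 1.02 ± 0.17, adjusted p = 3.64e-05). Pcsk6, the convertase known to activate corin, had 29.3 ± 12.3 CPM at 6 h, against 87.0 ± 11.9 CPM in sham hearts (log2 fold change -1.57 ± 0.18, adjusted p = 1.97e-07). It was still low at 12 h, with 27.0 ± 2.62 CPM (log2 fold change -1.69). Mme, which encodes neprilysin, the membrane peptidase that breaks down ANP, had 3.65 ± 1.09 CPM at 6 h, against 13.3 ± 1.59 CPM in sham hearts (log2 fold change -1.86 ± 0.25, adjusted p = 2.56e-06). Dpp4, a peptidase that trims BNP, had 1.56 ± 0.218 CPM at 6 h, against 5.32 ± 1.15 CPM in sham hearts (log2 fold change -1.77 ± 0.37, adjusted p = 0.000464). Ece1, endothelin-converting enzyme, was highest at 3 h with 147 ± 11.9 CPM, against 87.1 ± 5.31 CPM in sham hearts (log2 fold change 0.76, adjusted p = 3.22e-05). Lnpep, an aminopeptidase, was called at 6 h (log2 fold change 0.62, adjusted p = 0.0110) and at no other time against sham. The fibroblast markers given above were low in the same 6 h libraries, and their part in the lower genes was not tested.

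The listed genes of cyclic GMP signalling, which make, carry or end the signal, were mostly lower at 6 h. They include subunits of the soluble cyclase, which is not downstream of the natriuretic peptide receptors. Of 18 listed genes 15 were tested. Prkg2 and Cnga1 were too low, and Pde2a was not analysed here. At 6 h 2 were higher and 10 lower, where 24.6% of all genes were higher and 22.9% lower (median log2 fold change -0.81, all genes -0.01). At 12 h 1 was higher and 7 lower, where 16.9% and 14.9% of all genes were (median -0.48, all genes 0.01). At 3 h 1 was higher and 5 lower (all genes: 18.4% and 16.9%), but the median was 0.13 (all genes -0.01). Earlier, 1 was higher and 2 lower at 0.5 h (all genes: 7.43% and 4.48%), 1 higher and 1 lower at 1 h (7.46% and 3.41%), and 1 lower at 1.5 h (2.99%).

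Gucy1a1, a subunit of the soluble guanylyl cyclase that answers to nitric oxide, was lower at every time of reperfusion. It had 10.8 ± 3.11 CPM at 6 h, against 29.6 ± 1.50 CPM in sham hearts (log2 fold change -1.46 ± 0.19, adjusted p = 1.68e-06). Pde5a, a phosphodiesterase that breaks down cyclic GMP, had 2.45 ± 1.08 CPM at 6 h, against 8.68 ± 1.10 CPM in sham hearts (log2 fold change -1.82 ± 0.27, adjusted p = 9.09e-06). Rgs2, a brake on G protein signalling that cyclic GMP kinase acts through, had 11.2 ± 5.89 CPM at 6 h, against 46.3 ± 0.208 CPM in sham hearts (log2 fold change -2.04 ± 0.34, adjusted p = 3.13e-05). Pln, phospholamban, a calcium pump inhibitor that is phosphorylated by the same kinase and also stands in the ventricular list, had a log2 fold change of -1.32 ± 0.17 at 6 h (adjusted p = 1.35e-06). The whole ventricular list summed to 52120 to 59186 CPM at 6 h, against 59131 to 62424 CPM in sham hearts, and its part was not tested. Vasp, an actin regulator and substrate of the kinase, was higher, with 63.1 ± 9.55 CPM at 6 h, against 24.1 ± 2.47 CPM in sham hearts (log2 fold change 1.39 ± 0.17, adjusted p = 4.27e-07). Ppp1r12a, a subunit of myosin phosphatase, was called at 6 h only (log2 fold change 0.84, adjusted p = 0.000395). The sum of the smooth muscle and pericyte markers was 902 to 1212 CPM at 6 h, against 1605 to 1654 CPM in sham hearts, and its part was not tested.

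Of the cardiac factors known to act on the Nppa and Nppb genes, 18 were tested. At 6 h 5 were higher and 5 lower, where 24.6% of all genes were higher and 22.9% lower (median log2 fold change 0.11, all genes -0.01). At 12 h 3 were higher and 3 lower, at 3 h 4 and 3, at 1.5 h 2 and 1, at 1 h 1 and 3, and at 0.5 h 2 and 5. At 3, 6 and 12 h the share called was near that of all genes (35.3%, 47.4% and 31.8%). At 0.5, 1 and 1.5 h it was higher than that of all genes, of which 11.9%, 10.9% and 7.54% were called. By direction, all genes had 7.43% higher and 4.48% lower at 0.5 h, 7.46% and 3.41% at 1 h, and 4.55% and 2.99% at 1.5 h. Mef2a and Mef2c, muscle transcription factors, were lower at 6 h by log2 fold changes of -0.94 (adjusted p = 6.34e-06) and -0.79 (adjusted p = 7.05e-05). Zfpm2, a partner of GATA4, was lower at 6 h as well (-1.10 ± 0.18, adjusted p = 2.61e-05). Rest, which is known to repress Nppa and Nppb, had 43.6 ± 4.08 CPM at 6 h, against 25.8 ± 2.65 CPM in sham hearts (log2 fold change 0.76 ± 0.16, adjusted p = 0.000389). Tbx3, a repressor of working muscle genes in the conduction system, was higher at 3, 6 and 12 h, with log2 fold changes of 0.79, 0.86 and 0.59. Nfatc3, a calcineurin-dependent factor, was lowest at 3 h (-0.94 ± 0.15, adjusted p = 3.67e-05).

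**Figure D5:**
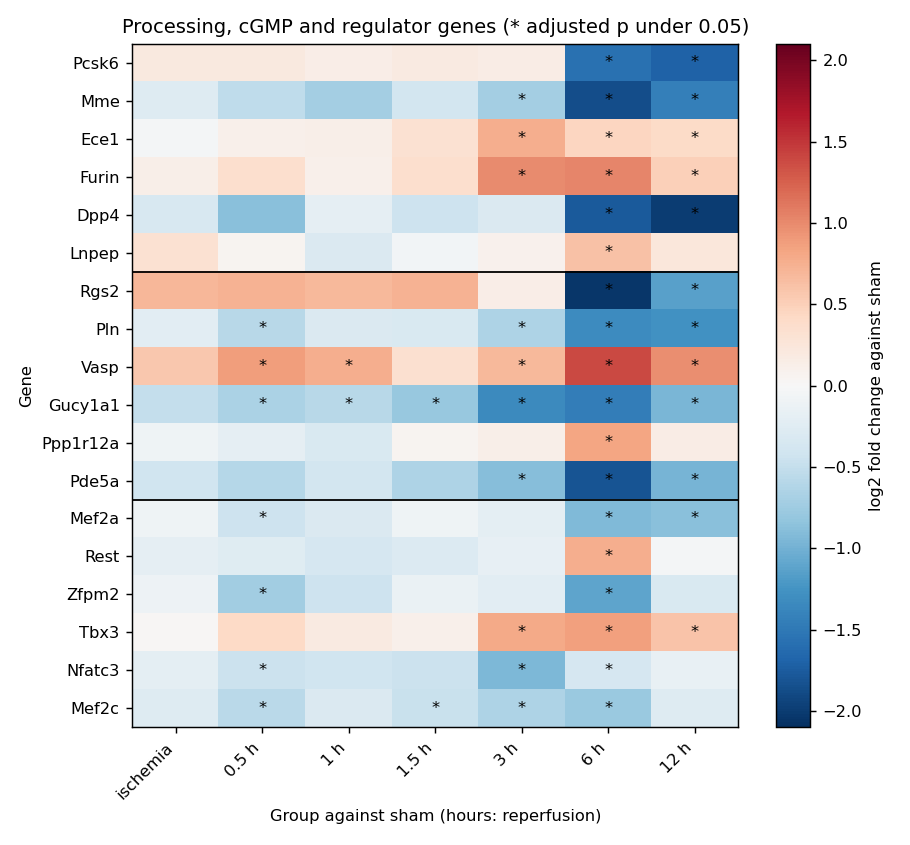
Log2 fold changes against sham of 18 genes, 6 each from the processing and clearance list (top), the cyclic GMP list (middle) and the list of cardiac factors (bottom), by group in order of time. Blue is lower and red higher than sham, and asterisks mark an adjusted p under 0.05. The genes shown are those of each list with the smallest adjusted p across the 8 groups in these same data, so many asterisks follow from that choice. All 18 genes carry an asterisk at 6 h, where 47.4% of all genes were called. Rgs2 (-2.04) and Mme (-1.86) are the lowest and Vasp (1.39) the highest there.

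Genes whose course over the 24 libraries was most like that of each called member were found by Pearson's r of log2 CPM among 10153 genes with a mean of at least 5 CPM. For Nppb these were Odc1, the first enzyme of polyamine synthesis (r = 0.932), the tubulin genes Tuba1c (0.927) and Tubb6 (0.914), and Tnfrsf12a, the receptor of the cytokine TWEAK (0.920). Tnfrsf12a averaged 381 CPM at 6 h and 122 CPM at 12 h, against 18.8 CPM in sham hearts. For Nppa they were Eif3d, a translation initiation factor (0.886), Lgals3, galectin-3 (0.885), Ppp1r14b, a phosphatase inhibitor (0.876), and Klf16, a zinc finger factor (0.876). Lgals3 averaged 11.6 CPM at 6 h and 12.9 CPM at 12 h, against 2.01 CPM in sham hearts. Between Nppa and Nppb themselves r was 0.703, and Nppb ranked 443 among the 10153 genes by likeness to Nppa. For Npr1 they were Notch3, a receptor of vascular smooth muscle (0.883), Mllt6 (0.867), Map1a (0.834) and Usp19 (0.832). For Npr2 they were the matrix genes Thbs3 (0.848) and Col5a1 (0.831), then Ndufa4l2 (0.826) and Nectin2 (0.826). The points are bulk libraries that share their groups and depth, so r describes likeness of course and no more.

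Some genes around the Nppb and Nppa pair were also compared with sham, each within 100 kb of the pair and named here after its values were seen. At 6 h 2510039O18Rik had 49.9 CPM, against 34.2 CPM in sham hearts (log2 fold change 0.54 ± 0.14, adjusted p = 0.00257), and the antisense gene Gm13054 was called higher at the same time. By the same edgeR test 2510039O18Rik was also called higher at 3 h (adjusted p = 0.0311) and 12 h (adjusted p = 0.0451), and Gm13054 at 12 h (adjusted p = 0.000623). At 12 h Mfn2, a mitochondrial fusion gene, was lower with 721 ± 41.4 CPM, against 959 ± 64.2 CPM in sham hearts (log2 fold change -0.41 ± 0.13, adjusted p = 0.0142). Clcn6, Plod1 and Agtrap were not called against sham at any time.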

How the data were processed

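RNA came from frozen heart tissue and was sequenced on Illumina TruSeq libraries, per the labels' protocols. The authors deposited whole-number read counts per gene for each library, in columns with or without multiply mapped reads and duplicates, per the file headers. The submitters' processing notes name mm10 as the build. Neither the aligner nor the counting tool, its use of strand or the gene models behind it is given in the sources used here. Of the deposited counts, those of reads mapped to 1 place were analysed, duplicates included. A floor of 3 reads was 0.152 to 0.240 CPM, which reflects counting error alone. Between libraries of the same group the chi-square over genes was 7.78 to 72.6 for each degree of freedom, and 0 pairs were identical.

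Groups came from the treatment labels. All 24 libraries entered 1 fit with edgeR 4.0.16 (R 4.3.3), with TMM factors of 0.858 to 1.16, filterByExpr (minimum count 10, minimum total 15), 16 residual degrees of freedom and a BCV of 0.156, the estimated spread between libraries beyond counting error. The tested genes held at least 99.9% of the reads. Every group was compared with sham, every time with the one before it, and all 8 groups at once, with Benjamini-Hochberg adjustment over all tested genes within each comparison. Comparisons with sham share the sham libraries. The test was also run on data simulated from the levels and spread of these libraries, with an outcome not reported here. Levels, ratios and correlations were computed with Python 3.11.15, pandas 2.3.3, numpy 2.4.6 and scipy 1.17.1, positions came from GENCODE vM21 on GRCm38 and promoter sequences from RefSeq on GRCm38.p6, where all 7 genes matched by symbol.

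Genes of 3 pathway lists were named by the smallest adjusted p across the 8 groups, at most 6 a list. Likeness named the 4 genes with the highest r for each member called across groups, from log2 CPM with a prior count of 2. The genes, lists and tests were chosen with earlier results of these data known. Alternatives were DESeq2 1.42.0, limma-voom (limma 3.58.1), other scalings, no filter, duplicates removed, multiply mapped reads included, no mitochondrial genes, an atrial covariate, a replicate block, the libraries of only the groups compared, and each library left out. The deposited RPKM values were not used, and some genes are not reported here.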

Additional observations from a re-analysis of the deposited data

Results flagged for a closer look

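The change against sham differed between neighbouring times in 5 cases, by edgeR's quasi-likelihood test with adjustment over all tested genes. Sham cancels in such a difference, so these are the tests between neighbouring times given above and add no further test. For Nppb the log2 change at 6 h exceeded that at 3 h by 1.34 (adjusted p = 0.00881), and that at 12 h was below that at 6 h by a difference of -1.78 (adjusted p = 0.00265). For Nppa the change at 3 h exceeded that at 1.5 h by 1.13 (adjusted p = 0.0337), and that at 6 h exceeded that at 3 h by 0.89 (adjusted p = 0.0396). For Npr2 the change at 6 h was below that at 3 h by a difference of -0.37 (adjusted p = 0.0129). The Nppa and Npr2 cases lost their call in some fits that left out 1 library and in some other settings, among them library totals, and both Nppb cases kept it in all 17 settings tried.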

How the results depend on the processing

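Over the 63 results of single genes, 1182 alternative values were computed. Of these 1101 kept their direction and their side of the threshold, 41 lost a call, 13 gained one and 27 changed sign, all of the last in differences that were not called. Replicate numbers do not pair the libraries (same-number pairs correlated between -0.179 and 0.199), and with the replicate block the 6 h log2 fold changes were 3.88 for Nppb and 2.67 for Nppa and every count of called members was the same as without it. Counts of called members that moved by more than 1.5 times were the following. For ischemia DESeq2 gave 1 and no filter 2, and leaving out 1 library gave 0 to 1. With the atrial covariate 0 were called at 0.5 h and 0 at 1 h, and leaving out 1 library gave 0 to 2 and 1 to 2. With no filter 2 were called at 1.5 h, 1 at 1.5 h against 1 h and 2 at 3 h against 1.5 h, where library totals and the covariate gave 0 and leaving out 1 library 0 to 1. Library totals gave 1 at 6 h against 3 h (leaving out 1 library: 1 to 3) and 2 at 12 h against 6 h (1 to 2). Library totals alone moved the median of all genes by 0.13 at 0.5 h, 0.22 at 12 h and 0.17 at 12 h against 6 h, and made 87.6%, 76.8% and 80.7% of calls higher, beside 62.4%, 53.1% and 49.3%, and 81.7% beside 68.6% at 1 h. Over all genes, no filter gave 289 calls after ischemia, beside 14, 329 at 0.5 h against ischemia, beside 5, 159 at 1 h against 0.5 h, beside 0, and 357 at 1.5 h against 1 h, beside 10. DESeq2 gave 48, 59, 0 and 70 in these comparisons and limma-voom 3, 4, 0 and 2, and library totals gave 2 in the last. For 0.5 h against ischemia duplicates removed gave 15, multiply mapped reads 8 and the replicate block 12. The covariate gave 8 calls after ischemia, 2701 at 3 h, beside 5341, and 546 at 3 h against 1.5 h, beside 1290. With only the 2 groups' libraries 29 were called after ischemia, 3937 at 0.5 h, beside 1802, 2062 at 1.5 h, beside 1141, 0 at 0.5 h against ischemia, 1 at 1.5 h against 1 h, 679 at 3 h against 1.5 h and 2765 at 6 h against 3 h, beside 4223. Leaving out 1 library gave 5 to 39 after ischemia, 603 to 1093 at 0.5 h, 559 to 1669 at 1 h (559 without 1 h replicate 1), 503 to 1041 at 1.5 h, 2 to 1156 at 0.5 h against ischemia, 0 to 3 at 1 h against 0.5 h, 0 to 20 at 1.5 h against 1 h, 525 to 1751 at 3 h against 1.5 h and 786 to 1792 at 12 h against 6 h, beside 1992. Signs changed for Npr2 after ischemia (-0.048 with the covariate, -0.085 to 0.12 leaving out 1 library), for Corin with library totals (0.00053 after ischemia, -0.0097 at 1.5 h, 0.12 at 12 h) and leaving out 1 library (-0.056 to 0.12 at 1.5 h), and for Npr1 at 1.5 h (0.0027 with no filter, 0.026 with duplicates removed, -0.10 to 0.068 leaving out 1 library) and 1 h (-0.20 to 0.12). Leaving out 1 library, Npr3 ranged from -0.41 to 0.21 at 0.5 h, -3.9e-05 to 0.75 at 1.5 h, -0.045 to 0.58 at 3 h, -0.071 to 0.55 at 6 h and -0.22 to 0.41 at 12 h. In the same way Nppa ranged from -0.54 to 0.11 at 0.5 h against ischemia and -0.10 to 0.48 at 12 h against 6 h, and Nppb from -0.093 to 0.39 at 1 h against 0.5 h. The causes were not tested.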

Other observations

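Over the 24 libraries the coefficient of variation was 100.4% for Nppb and 64.5% for Nppa, and it was 29.2% for Npr3, 20.4% for Npr1, 11.4% for Npr2 and 9.40% for Corin. Within single groups the highest Nppb library stood 3.12 times above the lowest at 3 h and 1.15 times after ischemia, while for Corin the ratio was 1.39 at 3 h and 1.16 after ischemia. For Npr3 it reached 2.31 in sham hearts and 2.28 at 1.5 h, beside 1.95 and 2.32 for Nppb. The 3 h library with the lowest Nppb (192 CPM) was not the lowest for Nppa (54.9 CPM, beside 48.0 and 62.6 CPM). Reads marked as duplicates made up 46.7% of all Nppb reads and 40.2% of all Nppa reads, but 26.1% to 27.4% of the reads of Npr1, Npr2, Npr3 and Corin. Over all genes the share was 39.2% to 54.5% in single libraries.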
